A study of Homo sapiens with 16 samples.

Results

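The 300 genes described here are promoter-divergent long non-coding transcripts, genes whose symbol ends in -DT, a name for transcripts that start near the promoter of a protein-coding gene and run the other way. Of 60252 gene rows in the count table, 578 carried such a symbol and 385 of these had a mean of 10 or more normalized counts over the 16 libraries. The 300 with the highest mean were kept, so the effective limit was the rank: RB1-DT (mean 27.3), WDR35-DT (27.2) and APPBP2-DT (26.5) were the last kept, and CSE1L-DT (26.4), RABGAP1L-DT (26.1) and NUP133-DT (26.04) were just outside. Members were thus chosen by their mean normalized count, and the levels below are a description. The lowest kept mean was also reached by 277 of the 300 in the DMSO and the AT7519 libraries taken separately, by 19 in the DMSO libraries only and by 4 in the AT7519 libraries only.

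The libraries came from LNCaP, an established human prostate cancer cell line, as strand-specific total-RNA sequencing of 8 groups with 2 libraries each. In the arm called Scr the siRNA was scrambled, in siOGT1 and siOGT2 it was directed at OGT for 48 h, and in the last arm cells received the compound OSMI2, an inhibitor of OGT. The OSMI2 dose and time, and whether a control siRNA was given with it, are not stated in the labels. Each of these 4 arms was then given DMSO as vehicle or 0.5 µM AT7519, an inhibitor of cyclin-dependent kinases, for 4 h. OGT is the enzyme that adds O-GlcNAc sugar to nuclear and cytoplasmic proteins, and the study asked how its loss meets inhibition of CDK9, the kinase that releases paused RNA polymerase II. The labels do not say whether replicates were separate cultures. The p-values therefore cover only the spread among these libraries, which may be technical.

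At most active human promoters RNA polymerase II starts in both directions. The transcript on the coding side is extended and spliced, whereas the divergent one is usually ended early by cap-proximal termination and removed by the nuclear exosome, in part because it holds few sites for the U1 splicing particle. A minority of divergent transcripts are stable enough to be annotated as long non-coding RNA genes, and these take the name of the coding gene beside them.

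By GENCODE release 29 on GRCh38, the coding gene in the name was present, protein-coding and tested for each of the 300. The divergent transcript lay apart from its coding gene on the opposite strand in 225 pairs and overlapped it in 75. The median signed gap between the 2 starts was 105.5 bp, a value below 0 marking starts that lie inside the partner's span, and in 24 pairs the starts lay over 1000 bp apart. Exonic length ran from 187 to 22965 bases (median 1655). In 68 members the annotation had 1 exon, in 79 it had 2 exons and in 153 it had 3 or more. The annotation typed 148 as antisense, 130 as lincRNA, 15 as processed transcripts and 5 as bidirectional promoter lncRNAs. The other members were IRX2-DT, typed as protein-coding, and JAKMIP1-DT, typed as a transcribed pseudogene. The annotated spans of 171 members, introns included, overlapped no other tested gene. Those of 104 overlapped one on the opposite strand only, and those of 25 one on the same strand. Exons were not compared. No source used here says whether the counting used the strand, so reads of overlapping genes cannot be told apart from those of the member.

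RefSeq promoter windows (GRCh38.p14, from 250 bases before a start to 50 after it) matched 228 members, and the coding gene's start lay inside the divergent window for 150 of them. Printed here are the windows of 6 members that the results turn on: WDR5B-DT and ZNF8-DT, which were higher after AT7519 while their coding genes were lower; CEP83-DT, DYNC1LI2-DT and JTB-DT, which were lower after AT7519; and UQCRFS1-DT, which was higher after OGT knockdown. Each is given on the strand of the divergent transcript, 5′ to 3′. The capitals mark the bases between the RefSeq start of the coding gene on the other strand and the start of the divergent transcript. WDR5B-DT lies at chr3:122415956-122416255 on the plus strand, ZNF8-DT at chr19:58278693-58278992 on the minus strand, and CEP83-DT at chr12:94459753-94460052 on the plus strand. DYNC1LI2-DT lies at chr16:66751502-66751801, JTB-DT at chr1:153977493-153977792 and UQCRFS1-DT at chr19:29213003-29213302, each on the plus strand.
WDR5B-DT: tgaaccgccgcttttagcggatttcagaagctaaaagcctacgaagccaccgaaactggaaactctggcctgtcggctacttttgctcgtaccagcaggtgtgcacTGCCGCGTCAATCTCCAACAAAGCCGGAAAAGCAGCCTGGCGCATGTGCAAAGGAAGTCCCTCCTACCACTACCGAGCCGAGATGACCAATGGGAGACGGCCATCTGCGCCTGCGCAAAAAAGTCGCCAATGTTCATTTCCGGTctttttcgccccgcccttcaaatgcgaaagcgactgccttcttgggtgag
ZNF8-DT: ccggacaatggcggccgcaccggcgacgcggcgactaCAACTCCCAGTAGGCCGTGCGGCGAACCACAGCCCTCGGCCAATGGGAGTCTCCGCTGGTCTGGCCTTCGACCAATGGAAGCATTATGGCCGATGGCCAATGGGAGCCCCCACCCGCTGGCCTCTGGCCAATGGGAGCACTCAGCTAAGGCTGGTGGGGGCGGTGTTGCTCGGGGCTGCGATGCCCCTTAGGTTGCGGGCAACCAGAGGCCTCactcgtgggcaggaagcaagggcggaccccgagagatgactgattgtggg
CEP83-DT: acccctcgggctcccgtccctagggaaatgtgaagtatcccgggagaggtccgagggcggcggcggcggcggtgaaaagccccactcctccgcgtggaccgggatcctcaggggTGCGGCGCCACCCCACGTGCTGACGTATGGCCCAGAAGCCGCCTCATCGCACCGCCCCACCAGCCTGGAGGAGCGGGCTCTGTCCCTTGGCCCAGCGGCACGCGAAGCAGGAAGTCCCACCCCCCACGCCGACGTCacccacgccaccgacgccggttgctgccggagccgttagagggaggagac
DYNC1LI2-DT: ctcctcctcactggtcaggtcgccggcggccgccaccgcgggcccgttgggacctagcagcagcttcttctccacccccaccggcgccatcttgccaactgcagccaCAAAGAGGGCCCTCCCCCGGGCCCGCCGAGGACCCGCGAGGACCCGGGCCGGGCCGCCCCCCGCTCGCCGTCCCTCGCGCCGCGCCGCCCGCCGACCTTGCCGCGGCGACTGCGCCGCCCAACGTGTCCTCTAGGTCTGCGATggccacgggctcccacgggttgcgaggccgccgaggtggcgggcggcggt
JTB-DT: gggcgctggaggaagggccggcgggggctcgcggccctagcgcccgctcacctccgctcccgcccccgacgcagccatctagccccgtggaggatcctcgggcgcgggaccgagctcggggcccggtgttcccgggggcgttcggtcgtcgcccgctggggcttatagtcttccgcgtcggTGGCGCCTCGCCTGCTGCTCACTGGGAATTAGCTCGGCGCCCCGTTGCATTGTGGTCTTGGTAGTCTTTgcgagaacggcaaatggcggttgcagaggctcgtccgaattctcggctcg
UQCRFS1-DT: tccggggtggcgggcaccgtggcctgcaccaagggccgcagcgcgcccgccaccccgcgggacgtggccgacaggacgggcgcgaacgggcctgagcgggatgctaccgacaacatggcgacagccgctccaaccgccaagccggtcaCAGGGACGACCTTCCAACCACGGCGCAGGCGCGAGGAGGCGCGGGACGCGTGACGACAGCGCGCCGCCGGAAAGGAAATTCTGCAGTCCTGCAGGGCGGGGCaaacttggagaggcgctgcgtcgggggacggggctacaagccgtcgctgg

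In these windows the stretch between the starts measured 144 bases for WDR5B-DT, 213 for ZNF8-DT, 136 for CEP83-DT, 143 for DYNC1LI2-DT, 69 for JTB-DT and 102 for UQCRFS1-DT. The letters CCAAT were present, on either strand, in the windows of WDR5B-DT and ZNF8-DT and not in the other 4 printed. GGGCGG was present in each of the 6, and CCGGAA in WDR5B-DT and UQCRFS1-DT. Over the 228 divergent windows, the median number of CpG dinucleotides was 31 and the median GC content 68.8%, beside 14 and 58.7% over 35116 RefSeq windows of the same length. GGGCGG occurred in 75% of divergent windows and 45.0% of all windows, and CCGGAA in 39.5% and 17.2%. TATAAA occurred in 3.95% and 11.5%, AATAAA, the letters of the polyadenylation signal, in 5.70% and 17.4%, and CCAAT in 32.5% and 34.6%. GGTAAG, letters that match the start of many introns, occurred in 7.02% and 8.02%. These are matches of letters searched on both strands, no searched word contains another, and none is a measured site. Divided by the AT7519 result described below, the 10 windows of members raised in Scr had a median of 23.5 CpG, the 85 of members lowered 32, and the 133 of members not called 30.

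The 16 libraries held 40216911 to 147019364 counts. The 300 members took 0.137 to 0.160% of the counts in the DMSO libraries and 0.0879 to 0.112% in the AT7519 libraries. Between replicates of a group, log2 values over all 23830 genes tested correlated at r of 0.983 to 0.991 (across genes, which are not independent). OGT itself stood at 274 and 263 CPM (counts scaled to library size) in Scr with DMSO, at 20.7 and 14.6 with siOGT1, at 36 and 29.8 with siOGT2 and at 349 and 336 with OSMI2, so both siRNAs lowered their target. The luminal prostate gene KLK3 (727 to 1658 CPM) was high in each library. Of 11 markers of basal epithelium, stroma and leukocytes, 9 stayed at or under 1.0 CPM, while COL1A1 reached 10.8 to 40.8 CPM and COL3A1 3.22 to 10.4 CPM. In bulk RNA, fewer cells of a kind and less RNA per cell cannot be told apart.

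Levels of divergent transcripts were low beside their coding genes. In Scr with DMSO the median over the 300 was 1.37 CPM per kilobase of exon, against 8.90 for the coding genes in their names, and the divergent transcript was the higher of the pair, per kilobase, in 48 of 300. In the 3 other DMSO groups the medians were 1.61 with siOGT1, 1.53 with siOGT2 and 1.52 with OSMI2. In the AT7519 groups they were 0.992 in Scr, 1.22 with siOGT1, 1.18 with siOGT2 and 1.03 with OSMI2, while the coding medians lay between 7.66 and 8.42. The number of pairs in which the divergent transcript was higher per kilobase ran from 47 to 53 of 300 over the 8 groups.

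Among the members with the highest mean count were CTBP1-DT, BAIAP2-DT, SLC12A2-DT, GARS1-DT, PAXIP1-DT, ZDHHC12-DT, ZNF584-DT, RAB17-DT and TMEM161B-DT. Per kilobase in Scr with DMSO, ZDHHC12-DT stood at 31.1 CPM, and GARS1-DT, whose annotated exons span 22965 bases, stood at 1.18 CPM. PAXIP1-DT, beside the gene of a DNA-damage and histone-methylation adaptor, reached 13.9 CPM per kilobase against 3.58 for PAXIP1. GARS1-DT overlaps the glycyl-tRNA synthetase gene GARS1 on the opposite strand. In Scr it stood at 26.7 and 27.4 CPM with DMSO and 27.2 and 28.9 CPM with AT7519. GARS1 stood at 280 and 283 CPM with DMSO and 340 and 332 CPM with AT7519. With the strand setting of the counting unknown, reads of GARS1-DT and GARS1 cannot be told apart. In SLC12A2-DT, beside the gene of a sodium-potassium-chloride cotransporter, the DMSO libraries (29.3 and 31.6 CPM) lay between the AT7519 libraries (32.3 and 23.5 CPM). Its log2 fold change was -0.13 ± 0.12 (edgeR adjusted p 0.395), 0.091 without Scr AT7519 replicate 2 and -0.346, which was called, without replicate 1.

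AT7519 for 4 h was compared with DMSO within each arm, the question being how inhibition of the kinases that release polymerase changes these transcripts. In Scr, 111 of the 300 fell and 15 rose at an edgeR adjusted p under 0.05, where 24.6% of all 23830 genes tested were lowered and 21.8% raised. The median log2 fold change of the members was -0.44, beside -0.05 over all genes tested and -0.05 over the coding genes in their names, of which 104 fell and 81 rose. Among the 277 members that reached the lowest kept mean in both the DMSO and the AT7519 libraries, 102 fell and 13 rose. Changes of 2-fold or more were called in 66 members downward and 3 upward, where all genes gave 11.7% and 6.34%. The member median lay at -0.39 relative to the all-gene median, a difference that a change of scaling leaves as it is by construction. The all-gene median itself moved by 0.15 (upper quartile) and -0.25 (library size alone).

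The other arms gave 98 lowered and 17 raised with siOGT1 (22% and 19.4% of all genes), 118 and 12 with siOGT2 (22.8% and 22.2%), and 113 and 19 with OSMI2 (23.6% and 23.6%). At 2-fold or more, 47 fell and 2 rose with siOGT1 (9.64% and 5.07% of all genes), 58 and 4 with siOGT2 (10.8% and 6.27%), and 70 and 4 with OSMI2 (11.6% and 7.15%). Member medians were -0.33 with siOGT1, -0.47 with siOGT2 and -0.42 with OSMI2. With upper-quartile scaling the OSMI2 split was 97 lowered and 33 raised (19.2% and 31.4% of all genes). The 4 comparisons share no library. In all 4 of them, 71 members fell and 9 rose, where 15.3% and 15% of all genes did. Those that rose were ZDHHC12-DT, RAB17-DT, SP2-DT, NETO1-DT, ZNF8-DT, WDR5B-DT, EOGT-DT, RSL1D1-DT and STX5-DT. None of the 188 members called in any arm was called in opposite directions, beside 44 of 14937 over all genes. In no arm were 112 of the 300 members called, beside 8893 of 23830 genes. Leaving out siOGT1 with AT7519 replicate 2 left 64 lowered in siOGT1, and leaving out either siOGT1 DMSO replicate or the AT7519 replicate 1 left 9 raised. For siOGT2, 77 were lowered without its AT7519 replicate 2, and 7 were raised without AT7519 replicate 1 or DMSO replicate 2. For OSMI2, 12 were raised without DMSO replicate 1 or either AT7519 replicate. A comparison with 3 libraries has fewer degrees of freedom, and a smaller share of all genes was called in these fits as well.

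**Figure D1:**
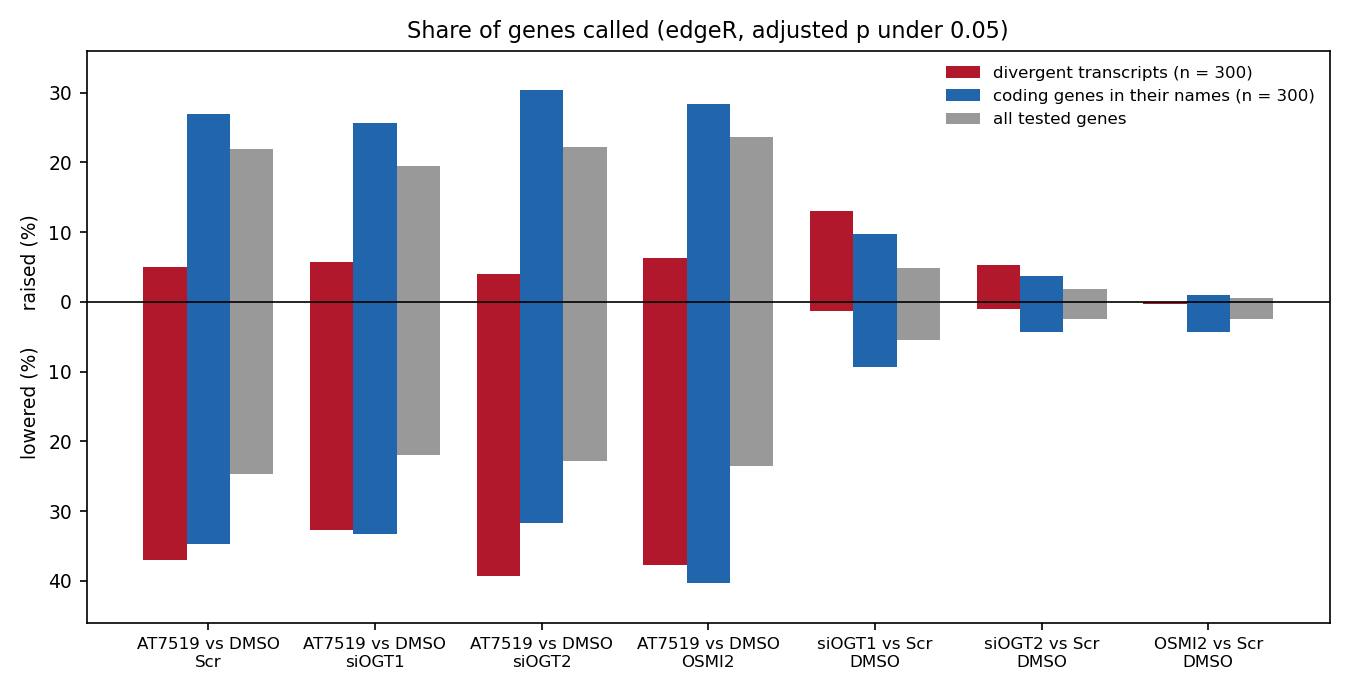
The plot of calls by comparison shows the percent of the 300 divergent transcripts, of the coding genes in their names and of all 23830 genes tested that were raised or lowered (edgeR adjusted p under 0.05), for AT7519 in the 4 arms and for the 3 OGT treatments under DMSO. In Scr, 111 divergent transcripts were lowered and 15 raised by AT7519, and with siOGT1 39 were raised and 4 lowered.

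Broader classes of non-coding RNA were counted in the same comparison. Of all 4838 tested non-coding RNA genes, 1010 fell and 667 rose in Scr, with a median log2 fold change of -0.25. These include the members other than IRX2-DT and JAKMIP1-DT, which the annotation types otherwise. Among 725 antisense transcripts named -AS1, 170 fell and 113 rose (median -0.19). Among 346 intergenic transcripts named LINC, 97 fell and 9 rose (median -0.42). These lists are described by their counts, and the differences between them and the divergent transcripts were not tested.

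The falls in Scr were led by CEP83-DT, a transcript of 1 annotated exon beside the gene of a distal-appendage protein of the centriole. CEP83-DT stood at 4.24 and 2.98 CPM with DMSO and at 0.371 and 0.383 CPM with AT7519 (log2 fold change -3.26 ± 0.27 (SE), edgeR adjusted p 1.21e-08). CEP83 stood at 17.8 and 20.1 CPM with DMSO and 19.4 and 19.2 CPM with AT7519, so its libraries overlapped while those of the divergent transcript did not. CEP83-DT also fell with siOGT1 (4.17 and 3.88 to 1.06 and 1.04 CPM), siOGT2 (3.70 and 2.85 to 0.470 and 0.546 CPM) and OSMI2 (3.21 and 2.70 to 0.354 and 0.474 CPM).

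DYNC1LI2-DT overlaps DYNC1LI2, which encodes a light intermediate chain of cytoplasmic dynein. It went from 0.814 and 0.724 CPM to 0.111 and 0.0590 CPM in Scr (-3.19 ± 0.55, edgeR adjusted p 7.79e-05). The Scr AT7519 libraries held only 6 and 4 counts of it, so the size of this fall is uncertain. DYNC1LI2 went from 207 and 206 to 236 and 245 CPM (0.22 ± 0.07, edgeR adjusted p 0.0131). In OSMI2 with AT7519 DYNC1LI2-DT had 16 and 2 counts, so no fold is given there.

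TMEM263-DT fell from 3.39 and 3.30 to 0.649 and 0.442 CPM (-2.63 ± 0.29, edgeR adjusted p 3.81e-07), and TMEM263 from 77.9 and 81.0 to 68.1 and 55.1 CPM (-0.37 ± 0.10). GSK3B-DT, beside the gene of the kinase glycogen synthase kinase 3 beta, fell from 5.95 and 6.34 to 0.816 and 1.22 CPM (-2.57 ± 0.22, edgeR adjusted p 1.64e-08). GSK3B itself fell from 178 and 167 to 69.9 and 54.3 CPM (-1.47 ± 0.11). In both pairs the 2 AT7519 libraries lay below the 2 DMSO libraries for the divergent and for the coding gene.

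USP27X-DT, beside a deubiquitinase gene, fell from 3.69 and 2.88 to 0.760 and 0.369 CPM (-2.57 ± 0.31), and USP27X from 5.61 and 5.85 to 1.89 and 1.98 CPM (-1.56 ± 0.30). ZKSCAN2-DT, beside a zinc-finger gene, fell from 6.94 and 6.71 to 1.45 and 1.12 CPM (-2.42 ± 0.31), and ZKSCAN2 from 17.2 and 17.3 to 4.82 and 3.99 CPM (-1.97 ± 0.14). LRP8-DT, beside the gene of a receptor for apolipoprotein E and reelin, fell from 1.77 and 1.95 to 0.482 and 0.251 CPM (-2.36 ± 0.37), with LRP8 falling from 39.0 and 39.4 to 24.5 and 22.7 CPM (-0.73 ± 0.09). The divergent and the coding member of these 3 pairs moved the same way.

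PPM1L-DT, beside a protein phosphatase gene, fell from 2.48 and 2.02 to 0.519 and 0.442 CPM (-2.23 ± 0.29, edgeR adjusted p 2.67e-06). PPM1L stood at 13.3 and 11.4 CPM and then at 11 and 8.95 CPM (-0.31 ± 0.13, edgeR adjusted p 0.0647). DOCK9-DT, beside the gene of an exchange factor for the small GTPase CDC42, fell from 0.769 and 0.515 to 0.111 and 0.118 CPM (-2.48 ± 0.47, edgeR adjusted p 0.000197). It had 6 and 8 counts in Scr with AT7519, and 2 and 0 counts in OSMI2 with AT7519. JAKMIP1-DT completes the 10 largest falls and is described with the interactions.

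The largest rises in Scr included RSL1D1-DT, STX5-DT, WDR5B-DT, DHX35-DT, EOGT-DT, C16orf95-DT, ADCY6-DT, ZFP28-DT and ZNF8-DT. RSL1D1-DT, beside the gene of a nucleolar ribosome-assembly protein, stood at 0.433 and 0.432 CPM with DMSO and at 2.21 and 4.02 CPM with AT7519 (2.85 ± 0.35, edgeR adjusted p 1.62e-06). RSL1D1 stood at 235 and 269 and then 272 and 257 CPM, with overlapping libraries. RSL1D1-DT overlaps GSPT1, the gene of a translation release factor, and ENSG00000261560 on the opposite strand. GSPT1 also rose (346 and 366 to 419 and 430 CPM, 0.25, edgeR adjusted p 0.0064), as did ENSG00000261560 (1.34 and 0.919 to 1.95 and 3.36 CPM, 1.23, edgeR adjusted p 0.0091).

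STX5-DT, beside the gene of a Golgi SNARE protein, rose from 0.433 and 0.320 to 1.41 and 1.67 CPM (2.01 ± 0.36, edgeR adjusted p 0.000112), while STX5 fell from 28.0 and 26.9 to 21.3 and 19.9 CPM (-0.42 ± 0.11). It overlaps WDR74 on the opposite strand, and WDR74 rose from 31.7 and 39.0 to 65.4 and 83.9 CPM (1.08, edgeR adjusted p 2.4e-05). With the strand setting of the counting unknown, the rises of RSL1D1-DT and STX5-DT cannot be told apart from those of the genes they overlap.

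WDR5B-DT, beside the gene of a WD-repeat protein related to WDR5, rose from 5.97 and 5.59 to 10.5 and 12.3 CPM (0.97 ± 0.18, edgeR adjusted p 0.00019). WDR5B fell from 24.9 and 24.8 to 5.53 and 4.26 CPM (-2.35 ± 0.15, edgeR adjusted p 4.01e-10). In the other 3 arms WDR5B-DT stood at 3.42 to 6.20 CPM with DMSO and at 6.79 to 11 CPM with AT7519, and WDR5B at 19.3 to 30.5 and then 4.28 to 6.28 CPM, with no overlap for either gene. WDR5B-DT overlaps KPNA1 on the opposite strand, which had a log2 fold change of 0.08 (edgeR adjusted p 0.49).

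ZNF8-DT, beside a zinc-finger gene, rose from 5.80 and 6.28 to 8.87 and 10.4 CPM (0.68 ± 0.15, edgeR adjusted p 0.000833), and ZNF8 fell from 10.4 and 8.48 to 0.946 and 1.56 CPM (-2.90 ± 0.23, edgeR adjusted p 5.99e-09). Across the other 3 arms, ZNF8-DT stood at 5.32 to 7.03 CPM with DMSO and 8.51 to 11.6 CPM with AT7519, with no overlap. ZNF544, which ZNF8-DT overlaps on the opposite strand, fell (-0.32, edgeR adjusted p 0.0046).

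EOGT-DT overlaps EOGT, the gene of the enzyme that adds O-GlcNAc to extracellular protein domains, and also TMF1, UBA3 and MIR3136. It rose from 2.42 and 2.97 to 4.21 and 5.70 CPM (0.89 ± 0.22, edgeR adjusted p 0.00261), while EOGT fell from 21.1 and 20.2 to 15.6 and 15.7 CPM (-0.40 ± 0.11). TMF1 fell too (-0.67, edgeR adjusted p 1.17e-06), whereas UBA3 rose (143 and 152 to 178 and 176 CPM, 0.27, edgeR adjusted p 0.005), as did MIR3136 (0.0354 and 0 to 0.408 and 0.884 CPM, edgeR adjusted p 9.36e-05). The rise of EOGT-DT therefore cannot be told apart from those of UBA3 and MIR3136. DHX35-DT, a transcript of 187 bases beside an RNA-helicase gene, rose from 1.73 and 1.41 to 3.67 and 2.42 CPM (0.94 ± 0.23, edgeR adjusted p 0.00185). The rises of C16orf95-DT, ADCY6-DT and ZFP28-DT in Scr were 0.78 ± 0.22, 0.68 ± 0.22 and 0.68 ± 0.25, each from under 3 CPM. Without a single Scr library, some of the smaller rises lost their call. The edgeR adjusted p became 0.0542 for DHX35-DT without Scr AT7519 replicate 1 and 0.0549 for EOGT-DT without replicate 2. For ADCY6-DT it became 0.123 without Scr DMSO replicate 1 and 0.0524 without Scr AT7519 replicate 2, and for ZFP28-DT 0.116 without Scr AT7519 replicate 1 and 0.206 without Scr DMSO replicate 2. ZDHHC12-DT (16.3 and 17.5 to 22.9 and 22.0 CPM, 0.41 ± 0.11) and RAB17-DT (15.8 and 19.5 to 23.8 and 21.9 CPM, 0.37 ± 0.12) rose in the full data, and their adjusted p was 0.0581 and 0.231 without Scr DMSO replicate 1. For RAB17-DT it was 0.0692 without Scr AT7519 replicate 1.

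**Figure D2:**
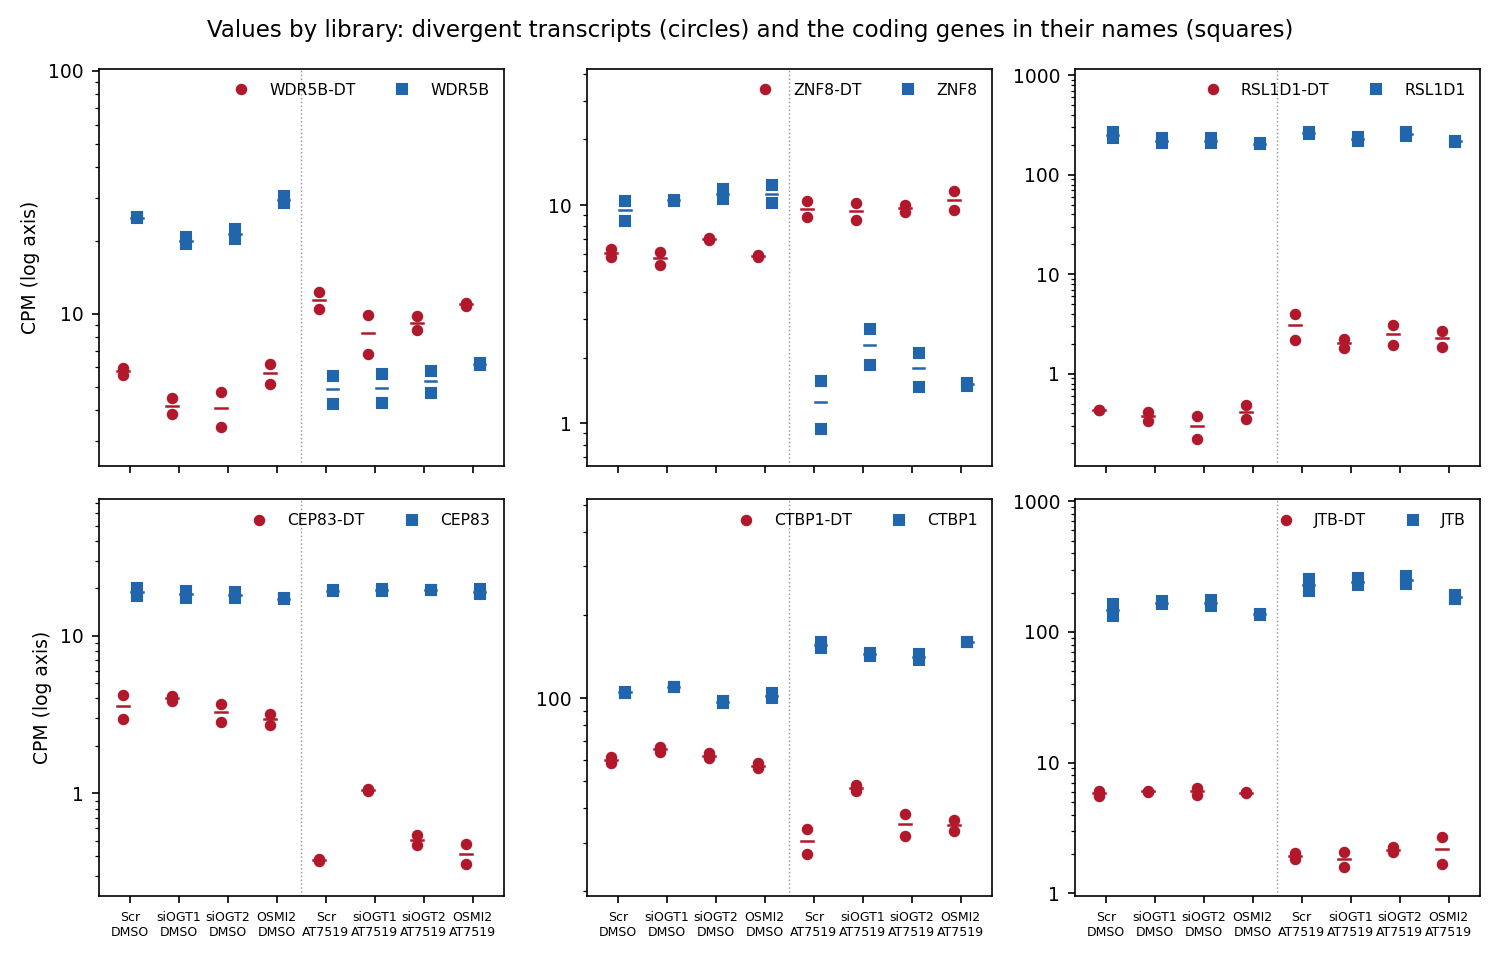
The plot of values by library gives CPM on log axes for 6 divergent transcripts (circles) and the coding genes in their names (squares) in the 8 groups, with 2 libraries each and a dash at the group mean. WDR5B-DT and ZNF8-DT lie higher with AT7519 than with DMSO while WDR5B and ZNF8 lie lower, and CEP83-DT falls from 4.24 and 2.98 to 0.371 and 0.383 CPM in Scr while CEP83 stays between 17.8 and 20.1 CPM.

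Each divergent transcript was also set against the coding gene in its name by the ratio of the 2, tested as the log2 of the divergent over the coding CPM with 0.1 CPM added to each. The limma fit ran over 2983 pairs, namely the 300, 130 other -DT pairs and all head-to-head pairs in the annotation. AT7519 in Scr lowered the ratio in 106 of the 300 and raised it in 36, where 30.3% of all pairs were lower and 14.7% higher. Among 1065 other head-to-head pairs of a non-coding and a coding gene, 22.5% were lower and 16.2% higher. In siOGT1, 92 ratios were lower and 34 higher (27.2% and 12.3% of all pairs), in siOGT2 109 and 31 (31.4% and 13.9%), and in OSMI2 103 and 52 (29.7% and 16.2%). The median difference over the 300 was -0.36 in Scr, -0.29 with siOGT1, -0.34 with siOGT2 and -0.29 with OSMI2.

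The call of the divergent transcript and that of its coding gene were crossed in Scr. Of the 111 divergent transcripts that fell, 43 lay beside a coding gene that fell, 34 beside one that rose and 34 beside one that was not called. The ratio was called by its own test, counted in either direction, in 13, 34 and 30 of these. Of the 15 that rose, 7 lay beside a coding gene that fell and 1 beside a gene that rose. Where the 2 genes of a pair were called in opposite directions, the direction of the ratio follows from those calls. The ratio call is no separate support there. Among the 174 not called, the coding gene fell in 54 and rose in 46. In siOGT1 a divergent fall met a coding rise in 29 pairs and a coding fall in 34, in siOGT2 in 40 and 37, and in OSMI2 in 35 and 48. Across the 300 pairs in Scr the log2 fold changes of the 2 genes had a Pearson r of 0.021. Those points share the libraries and their scaling, and are given as a description.

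**Figure D3:**
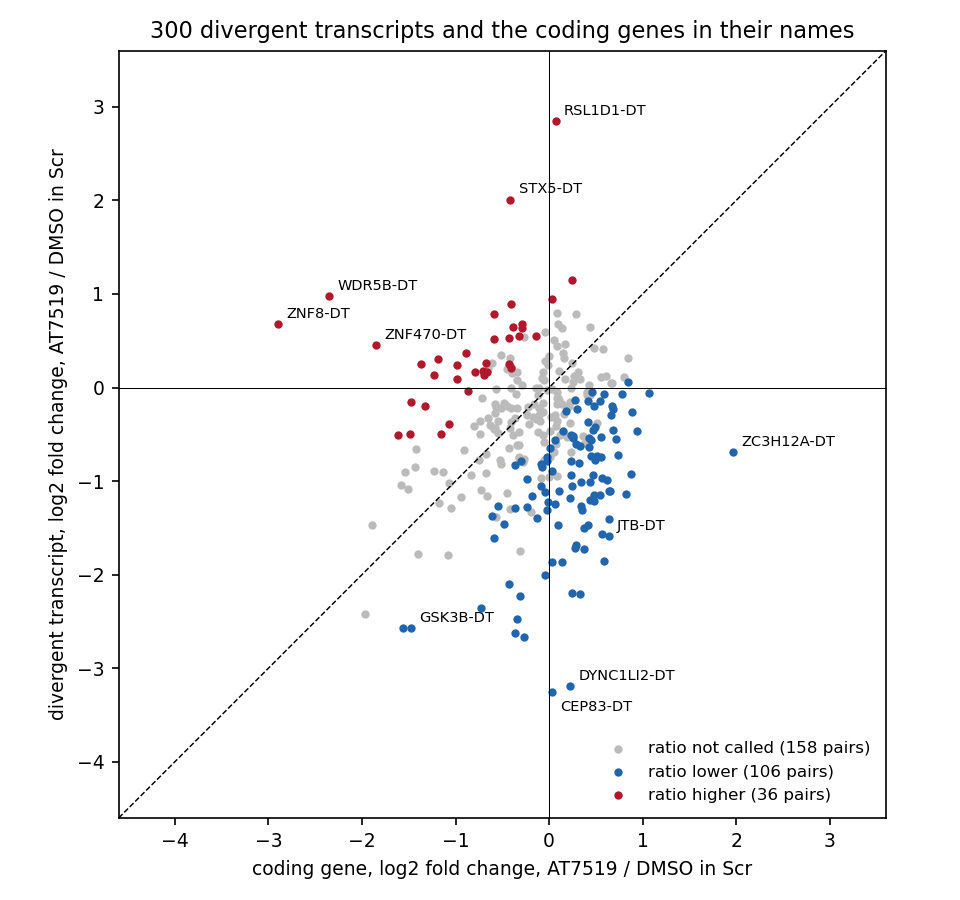
The plot of paired fold changes sets the log2 fold change (AT7519 over DMSO in Scr) of each of 300 divergent transcripts against that of the coding gene in its name, with the dashed line where both are equal. The 106 pairs with a lower ratio lie below the line, the 36 with a higher ratio above it, and the cloud has no slope (r of 0.021).

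The highest ratio changes in Scr were those of ZNF8-DT (3.51 ± 0.20, limma adjusted p 1.97e-10), WDR5B-DT (3.29 ± 0.25, limma adjusted p 6.88e-09), RSL1D1-DT (2.46 ± 0.36), STX5-DT (2.20 ± 0.35), ZNF470-DT (2.20 ± 0.35) and ST3GAL1-DT (1.61 ± 0.16). ZNF470-DT stood at 1.24 and 1.43 CPM with DMSO and at 1.3 and 2.31 CPM with AT7519 (edgeR adjusted p 0.315), while the zinc-finger gene ZNF470 fell from 23.4 and 26.7 to 7.33 and 6.54 CPM (-1.85 ± 0.13). ST3GAL1-DT stood at 8.27 and 10.2 and then at 10.3 and 11.6 CPM (edgeR adjusted p 0.206), and ST3GAL1, a sialyltransferase gene, fell from 922 and 985 to 358 and 380 CPM (-1.37 ± 0.09, edgeR adjusted p 5.95e-10). In these last 2 pairs the coding gene moved and the divergent transcript was not called.

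On the lower side stood CEP83-DT (-2.97 ± 0.28), ZC3H12A-DT (-2.64 ± 0.21), DYNC1LI2-DT (-2.47 ± 0.41), PTPN23-DT (-2.31 ± 0.26), TMEM14B-DT (-2.30 ± 0.44) and JTB-DT (-2.18 ± 0.23). ZC3H12A-DT fell from 11.4 and 10.9 to 7.31 and 6.50 CPM (-0.69 ± 0.15), while ZC3H12A, which encodes an endoribonuclease of inflammatory mRNAs, rose from 37.3 and 34.4 to 123 and 158 CPM (1.97 ± 0.24, edgeR adjusted p 3.36e-05). JTB-DT fell from 6.06 and 5.56 to 1.82 and 2.03 CPM (-1.59 ± 0.20, edgeR adjusted p 2.55e-06), and JTB, a transmembrane-protein gene, rose from 162 and 133 to 256 and 204 CPM (0.64 ± 0.11). JTB-DT fell and JTB rose in each of the 4 arms. ZC3H12A rose in each of them too and ZC3H12A-DT fell in Scr and with both siRNAs, while in OSMI2 its libraries overlapped (9.58 and 9.25 with DMSO, 6.64 and 9.37 CPM with AT7519, edgeR adjusted p 0.204).

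PTPN23-DT, beside the gene of a phosphatase-like protein of endosomal sorting, fell from 3.56 and 3.59 to 0.835 and 0.722 CPM (-2.20 ± 0.25), with PTPN23 at 58.6 and 52.1 and then 60.2 and 71.1 CPM (edgeR adjusted p 0.073). TMEM14B-DT fell from 1.2 and 1.56 to 0.223 and 0.516 CPM (-1.86 ± 0.52, edgeR adjusted p 0.0065), and TMEM14B rose from 56.8 and 52.8 to 85.4 and 78.8 CPM. CTBP1-DT, which overlaps the gene of the transcriptional corepressor CTBP1, fell from 58.4 and 61.2 to 33.6 and 27.3 CPM (-0.97 ± 0.10, edgeR adjusted p 2.35e-07). CTBP1 rose from 105 and 105 to 152 and 160 CPM (0.57 ± 0.07, edgeR adjusted p 1.29e-06), and the ratio changed by -1.54 ± 0.13.

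Among the other most abundant members, the falls in Scr were those of ZNF584-DT (25.4 and 24.7 to 11.3 and 10.2 CPM, -1.22 ± 0.11), PAXIP1-DT (34.1 and 28.5 to 22.1 and 16.3 CPM, -0.71 ± 0.15) and TMEM161B-DT (21.4 and 23.2 to 17.0 and 15.1 CPM, -0.48 ± 0.12). ZNF584, a zinc-finger gene that ZNF584-DT overlaps, stood at 19.9 and 20.0 and then 19.5 and 20.1 CPM. PAXIP1 fell with its divergent transcript (-0.67 ± 0.09), as did TMEM161B (-0.32 ± 0.09). BAIAP2-DT, beside the gene of an actin-organising adaptor, stood at 41.8 and 39.5 and then at 36.9 and 33.2 CPM (-0.21 ± 0.10, edgeR adjusted p 0.103).

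Features that the choice of members did not use were set beside the AT7519 result in Scr. In that comparison 24.6% of all genes tested were lowered and 21.8% raised. Of the 100 shortest members (187 to 1016 exonic bases), 22 fell and 9 rose, so their falls were near the all-gene share. Their median log2 fold change was -0.12. Of the 100 of middle length (1048 to 2268 bases), 47 fell and 2 rose (median -0.55), and of the 100 longest (2277 to 22965 bases) 42 fell and 4 rose (median -0.49). By exon number, 33 of 68 with 1 exon fell (median -0.73), 29 of 79 with 2 exons (median -0.49) and 49 of 153 with 3 or more (median -0.36). Over all 4838 non-coding RNA genes the corresponding medians were -0.50, -0.05 and -0.23, and 28.2%, 17.9% and 18.7% were lowered.

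By the absolute distance between the starts, 73 of 197 fell where they lay within 250 bp, 29 of 79 between 250 and 1000 bp and 9 of 24 beyond. Of members that overlapped no tested gene, 69 of 171 fell, where 24.6% of all genes tested were lowered. Spearman's rho with the log2 fold change across the 300 was -0.22 for length, 0.15 for exon number and -0.019 for the signed gap between the starts. These are descriptions across genes that share libraries, and length and exon number come from the annotation alone.

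**Figure D4:**
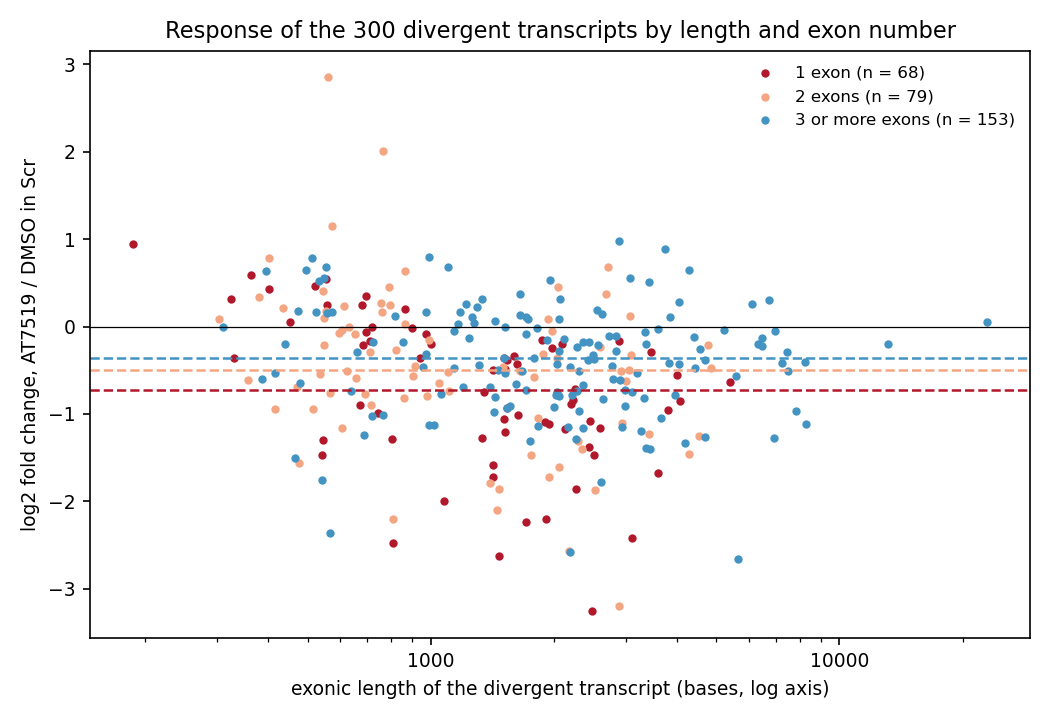
The plot of fold change by exonic length gives the log2 fold change (AT7519 over DMSO in Scr) of the 300 divergent transcripts against annotated exonic length in bases on a log axis. The 100 shortest have a median of -0.12, and the middle and longest 100 have medians of -0.55 and -0.49.

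The 3 OGT treatments were compared with Scr under DMSO, which asks what loss or inhibition of OGT does to these transcripts without AT7519. These comparisons share the 2 Scr DMSO libraries, so their values are set side by side and not counted as separate support. With siOGT1, 39 members rose and 4 fell, where 4.89% and 5.51% of all genes did, and the member median was 0.16. With siOGT2, 16 rose and 3 fell (1.92% and 2.38% of all genes), with a median of 0.09. With OSMI2, 0 rose and 1 fell by edgeR (0.491% and 2.49% of all genes), with a median of 0.08. In that last comparison 26 of 300 members had an unadjusted p under 0.05 in either direction, beside 3623 of 23830 genes. DESeq2 called 3 members raised there and limma 0. The coding genes in the names gave 29 raised and 28 lowered with siOGT1, 11 and 13 with siOGT2, and 3 and 13 with OSMI2. Beside these counts, the log2 difference from Scr under DMSO was -0.95 with siOGT1 and -0.45 with siOGT2 for COL1A1, and 0.30 and -0.41 for KLK3. Their part in the knockdown counts was not tested.

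Leaving out 1 library lowered the member counts of both siRNA comparisons, and the share of all genes called fell as well. With siOGT2 and without Scr DMSO replicate 1, the share of members raised was near that of all genes. With siOGT1 the number raised was 12 without Scr DMSO replicate 1, 11 without Scr DMSO replicate 2, 20 without siOGT1 replicate 1 and 8 without siOGT1 replicate 2, and the number lowered was between 0 and 2. With siOGT2 it was 2 and 4 without Scr DMSO replicates 1 and 2, and 7 and 3 without siOGT2 replicates 1 and 2, with 0 to 2 lowered. The 1 fall with OSMI2 was not called without OSMI2 replicate 1 or 2 or without Scr DMSO replicate 2. Of all 4838 non-coding RNA genes tested, siOGT1 raised 164 and lowered 62, among them 35 and 9 of the -AS1 and 25 and 10 of the LINC transcripts. Changes of 2-fold or more were called upward in 18 members and downward in 1 with siOGT1 (1.1% and 0.755% of all genes), and in 7 and 2 with siOGT2 (0.445% and 0.218%).

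CZIB-DT, a transcript of 1 exon beside the gene of a CXXC-motif zinc-binding protein, stood at 0.663 and 0.474 CPM in Scr, 3.87 and 3.52 CPM with siOGT1, 3.18 and 2.93 CPM with siOGT2 and 0.642 and 0.824 CPM with OSMI2. It rose with siOGT1 (2.68 ± 0.27, edgeR adjusted p 4.55e-06) and with siOGT2 (2.40 ± 0.28, edgeR adjusted p 4.43e-05), and its OSMI2 value was 0.35 ± 0.29 (edgeR adjusted p 0.647). CZIB stood at 27.8 and 27.4 CPM in Scr, 22.9 and 20.6 with siOGT1 and 22.5 and 22.6 with siOGT2 (-0.34 ± 0.11, edgeR adjusted p 0.0511, and -0.29 ± 0.11, edgeR adjusted p 0.163). The call of CZIB-DT held without any 1 of the libraries in both comparisons. Under AT7519 it stood at 0.111 and 0.236 CPM in Scr, 2.44 and 2.25 with siOGT1, 1.54 and 1.46 with siOGT2 and 0.413 and 0.290 with OSMI2.

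UQCRFS1-DT overlaps UQCRFS1, the gene of the Rieske iron-sulfur subunit of respiratory complex III. It stood at 0.318 and 0.292 CPM in Scr, 0.918 and 1.44 with siOGT1, 1.17 and 1.37 with siOGT2 and 0.481 and 0.362 with OSMI2 (1.91 ± 0.42 and 2.04 ± 0.43 for the siRNAs, edgeR adjusted p 0.00585 and 0.00911). UQCRFS1 stood at 141 and 133 CPM in Scr, 138 and 148 with siOGT1 and 139 and 138 with siOGT2. H2AZ1-DT, which overlaps the gene of the histone variant H2A.Z, stood at 0.336 and 0.348 CPM in Scr, 0.993 and 1.02 with siOGT1, 1.24 and 0.856 with siOGT2 and 0.408 and 0.412 with OSMI2 (1.62 ± 0.36 with siOGT2, edgeR adjusted p 0.0123). R3HDM2-DT rose with siOGT1 from 0.424 and 0.376 to 1.29 and 1.47 CPM (1.77 ± 0.36, edgeR adjusted p 0.00299), and with siOGT2 it stood at 1.07 and 0.799 CPM (edgeR adjusted p 0.0672). UQCRFS1-DT lost its call without either Scr library or replicate 2 of the siRNA group (adjusted p up to 0.0842 for siOGT1 and 0.108 for siOGT2), and H2AZ1-DT without either Scr library or siOGT2 replicate 1 (up to 0.154).

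The falls after knockdown were CFAP58-DT, CHD1-DT, ZMPSTE24-DT and SLC30A6-DT with siOGT1 and included LRP8-DT and CFAP58-DT with siOGT2. ZMPSTE24-DT, beside the gene of the protease that matures prelamin A, stood at 27.6 and 28.6 CPM in Scr and at 14.7 and 14.8 with siOGT1 (-0.93 ± 0.21, edgeR adjusted p 0.0115), but at 24.5 and 26.9 with siOGT2 and 29.1 and 30.0 with OSMI2. CFAP58-DT, beside a cilium and flagellum gene that was itself at 0.111 to 0.569 CPM with DMSO, stood at 1.61 and 2.33 CPM in Scr, 0.731 and 0.937 with siOGT1 and 0.900 and 0.913 with siOGT2 (-1.25 ± 0.26 and -1.11 ± 0.27, edgeR adjusted p 0.00403 and 0.0223). ZMPSTE24-DT was not called when any 1 of the 4 libraries was left out (edgeR adjusted p 0.066 to 0.114). CFAP58-DT was not called with siOGT1 without Scr DMSO replicate 2 (0.0875) or siOGT1 replicate 1 (0.08), nor with siOGT2 without Scr DMSO replicate 2 (0.276) or either siOGT2 library (0.137 and 0.187).

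CHD1-DT, beside a chromatin-remodeller gene, stood at 3.12 and 2.98 CPM in Scr and 1.80 and 1.23 with siOGT1 (-0.99 ± 0.24, edgeR adjusted p 0.0111), and CHD1 rose from 65.7 and 64.5 to 82.2 and 86.7 CPM (0.38 ± 0.08, edgeR adjusted p 0.00485). SLC30A6-DT, beside a zinc-transporter gene, stood at 5.72 and 5.77 CPM in Scr, 4.07 and 3.23 with siOGT1, 3.65 and 3.82 with siOGT2 and 3.51 and 3.84 with OSMI2 (edgeR adjusted p 0.0261, 0.0625 and 0.062). LRP8-DT fell from 1.77 and 1.95 to 0.850 and 0.647 CPM with siOGT2 (-1.31 ± 0.35, edgeR adjusted p 0.0366), as LRP8 did (39.0 and 39.4 to 31.0 and 28.5 CPM). Left without either Scr library or siOGT1 replicate 2, CHD1-DT and SLC30A6-DT lost their calls (edgeR adjusted p up to 0.194 and 0.307). LRP8-DT lost its call when any 1 of the 4 libraries was left out (0.109 to 0.332).

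BRINP3-DT, the 1 member that fell with OSMI2, stood at 6.96 and 11.6 CPM in Scr and 4.40 and 4.89 with OSMI2 (-0.99 ± 0.22, edgeR adjusted p 0.0199). With siOGT1 it was at 5.0 and 7.13 CPM and with siOGT2 at 5.10 and 6.71 CPM. Its Scr libraries lay far apart, and without Scr DMSO replicate 2 the edgeR adjusted p was 0.467, and without OSMI2 replicate 1 or 2 it was 0.149 or 0.152.

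**Figure D5:**
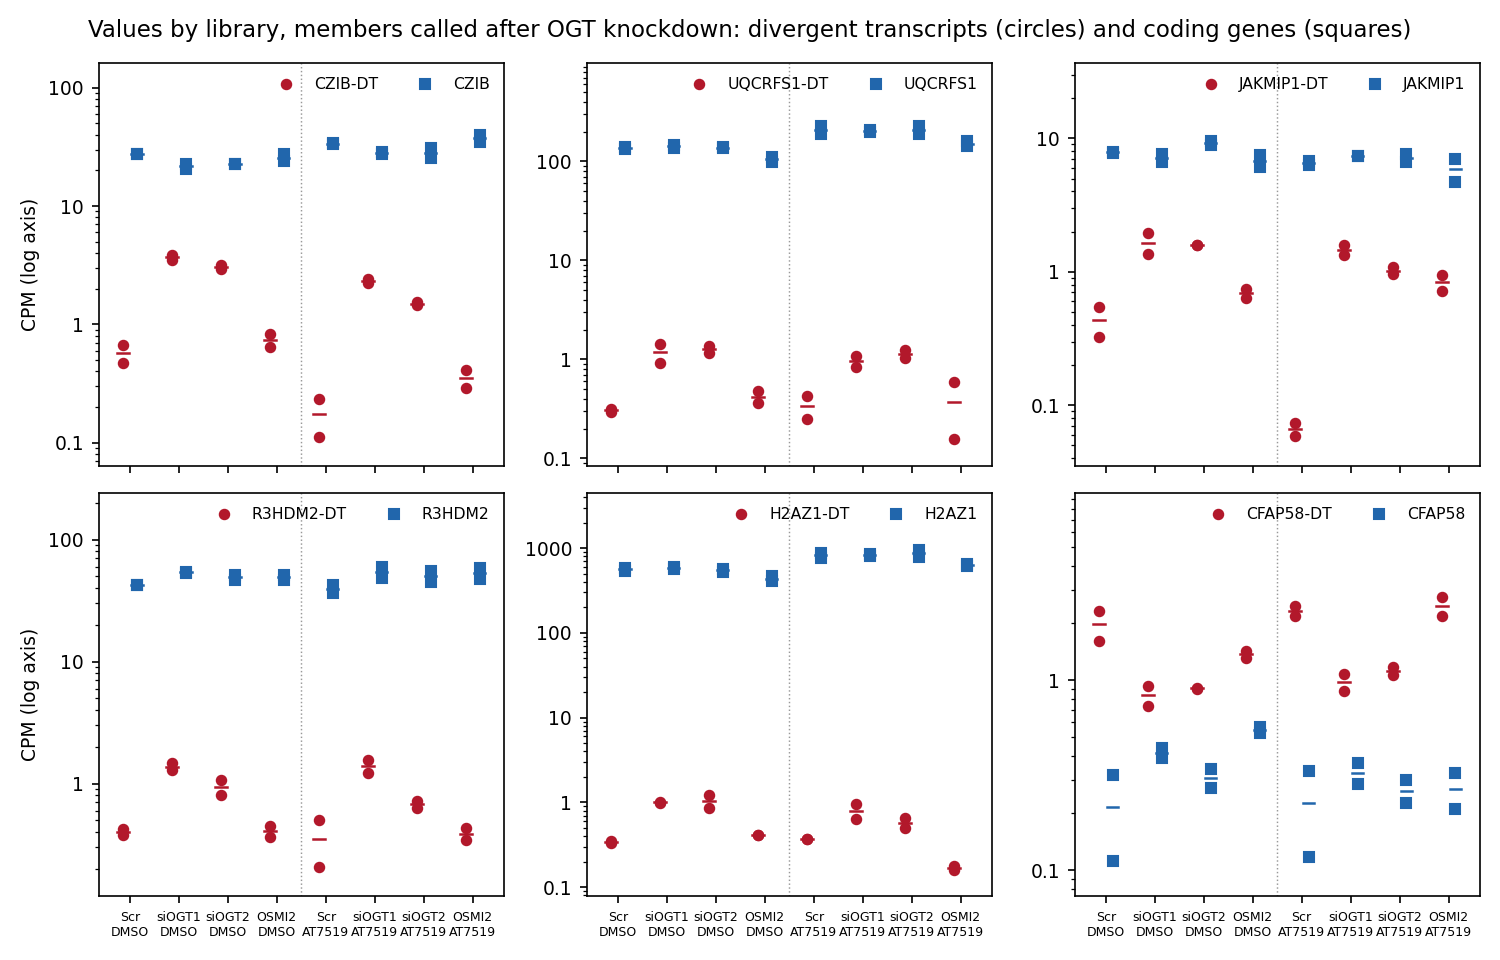
The plot of values after OGT loss gives CPM on log axes by library for divergent transcripts named in the knockdown comparisons (circles) and the coding genes in their names (squares) in the 8 groups. CZIB-DT lies at 2.93 to 3.87 CPM in the 4 siRNA libraries with DMSO and at 0.474 to 0.824 CPM in the Scr and OSMI2 libraries with DMSO.

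The interaction asks whether the response to AT7519 differed between an arm and Scr. By edgeR, 0 members were called for siOGT1 (0.0504% of all genes), 0 for siOGT2 (0% of all genes) and 1 for OSMI2 (0.747% of all genes). At an unadjusted p under 0.05 there were 20, 13 and 15 of 300 members, beside 1393, 928 and 2087 of 23830 genes. DESeq2 called 1, 0 and 0 members, and limma 0, 0 and 1. The member called was JAKMIP1-DT, beside the gene of a microtubule-associated protein. It stood at 0.327 and 0.543 CPM in Scr with DMSO and at 0.0742 and 0.0590 CPM with AT7519 (-2.66 ± 0.48, edgeR adjusted p 0.000109), and at 0.744 and 0.637 and then 0.724 and 0.948 CPM in OSMI2. The difference between the 2 responses was 2.92 ± 0.59 (edgeR adjusted p 0.0223). Its log2 fold change with AT7519 was -0.15 in siOGT1 and -0.63 in siOGT2, neither called, so the fall was called in Scr alone. Without 1 library the call was lost in 6 of 8 cases, with adjusted p between 0.0632 and 0.119.

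JAKMIP1-DT was also higher with siOGT1 (1.37 and 1.94 CPM) and siOGT2 (1.58 and 1.60 CPM) than in Scr with DMSO (1.94 ± 0.32 and 1.89 ± 0.32, edgeR adjusted p 0.000506 and 0.00197). Without Scr DMSO replicate 1 the siOGT2 value had an adjusted p of 0.0649. JAKMIP1 stood at 7.90 and 7.83 CPM in Scr, 6.69 and 7.59 with siOGT1 and 9.50 and 8.96 with siOGT2. JAKMIP1-DT overlaps another annotated gene on its own strand and is typed as a transcribed pseudogene, so its counts are uncertain.

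Genes of the machinery that ends or removes divergent transcripts were described from 3 lists. Of 20 genes of the nuclear exosome and its adaptors, 7 rose, 4 fell and 9 were not called with AT7519 in Scr, where 21.8% of all genes rose and 24.6% fell. ZFC3H1, which links the exosome to polyadenylated nuclear RNA, fell from 40.3 and 36.9 to 13.2 and 11.2 CPM (-1.67 ± 0.11, edgeR adjusted p 7.1e-10). EXOSC3, a cap subunit of the exosome, changed by -0.73 ± 0.11 and ZC3H3 by -0.86 ± 0.15. These genes were named for the smallest adjusted p in the list, whose median was 0.10 beside -0.05 over all genes.

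Of 23 genes of cap-proximal termination, 6 rose and 11 fell in the same comparison (21.8% and 24.6% of all genes), with a list median of -0.21 beside -0.05 over all genes. INTS5, a subunit of the Integrator complex that cleaves promoter-proximal RNA, fell from 32.7 and 31.7 to 8.38 and 7.19 CPM (-2.05 ± 0.11, edgeR adjusted p 3.7e-11), and ZC3H4, which restricts non-coding transcription, from 51.1 and 50.9 to 16.2 and 15.5 CPM (-1.69 ± 0.10). INTS2 fell by 1.32 on the log2 scale. Of 6 U1 particle proteins 5 rose (21.8% of all genes did), among them SNRNP70 (148 and 131 to 230 and 224 CPM, 0.70 ± 0.08) and SNRPC (0.56 ± 0.09), and LUC7L3 fell from 174 and 169 to 103 and 99.96 CPM (-0.76 ± 0.08).

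In the other arms the termination genes gave 4 raised and 11 lowered with siOGT1 (19.4% and 22% of all genes), 6 and 11 with siOGT2 (22.2% and 22.8%) and 6 and 12 with OSMI2 (23.6% and 23.6%). Under DMSO, where 5.51%, 2.38% and 2.49% of all genes were lowered with siOGT1, siOGT2 and OSMI2, 3 genes of the exosome list were lowered with OSMI2, 3, 1 and 1 of the termination list with siOGT1, siOGT2 and OSMI2, and 2 of the U1 list with each siRNA. The remaining genes of the lists were not called. How these genes' changes bear on the divergent transcripts was not tested.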

How the data were processed

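RNA from 16 LNCaP libraries (8 groups of 2) was measured by strand-specific total-RNA sequencing, per the labels' protocols. The deposited tables hold whole-number counts per Ensembl gene and the authors' normalized counts. The submitters' processing notes name STAR, HTSeq, DESeq2 and hg19 (GRCh37), with no versions. The normalized values, a signal made by the authors by dividing counts by a size factor, matched the counts so divided within 5.5e-10 and served only to choose members. Symbols came from the reference tables (55528 of 60252 identifiers matched), positions and lengths from GENCODE release 29 (GRCh38), and promoter windows from RefSeq (GRCh38.p14). The files' own build is GRCh37, so no coordinate of the files is printed.

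Counts were tested with edgeR 4.0.16 in R 4.3.3: TMM scaling, filterByExpr on the 8 groups, 1 model of group means over all 16 libraries (8 residual degrees of freedom) and the robust quasi-likelihood test, with Benjamini-Hochberg adjustment over 23830 genes. All 300 members passed the filter. CPM are counts scaled by the TMM library size. Pair ratios were tested with limma 3.58.1 over 2983 pairs, with 0.1 CPM added to each gene. Errors are standard errors of log2 fold changes. "Rose", "fell", "raised" and "lowered" mean an adjusted p under 0.05. Alternatives were other scalings, filters, replicate blocks, fits on the compared groups alone, DESeq2 1.42.0, limma on log2 of normalized values with 1 added, other pseudocounts, and each library left out. The procedures were tested on simulated data, in which the share of false calls was above the nominal level for some of the comparisons.

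Members, gene lists and comparisons were chosen with earlier results of these data known. Named are the 10 members with the highest mean, the 10 largest called rises and falls with AT7519 in Scr whose libraries did not overlap, the 4 largest for each OGT treatment, the called interactions, the 6 largest ratio changes each way, the coding genes in their names, and the 3 smallest adjusted p per machinery list. Genes that members overlap were added after their values were seen. Some results that meet this rule are not reported here.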

Additional observations from a re-analysis of the deposited data

Results flagged for a closer look

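The response of JAKMIP1-DT to AT7519 differed between the OSMI2 arm and Scr by 2.92 ± 0.59 on the log2 scale in edgeR's interaction test (adjusted p 0.0223), which is the difference that singled it out. It fell in Scr (log2 fold change -2.66, 2 of 2 AT7519 libraries below both DMSO libraries) and was not called in OSMI2 (0.26, edgeR adjusted p 0.549). Nor was it called with siOGT1 (-0.15) or siOGT2 (-0.63), so Scr was the only arm in which it fell. The Scr AT7519 libraries held 4 and 4 counts of it. The call was lost in 6 of the 8 fits that left out 1 library, and with only the groups compared in the fit the adjusted p was 0.0518.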

How the results depend on the processing

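Counts of members called are given for edgeR unless another tool is named, and the cause of each move was not tested. Upper-quartile scaling gave 27 raised with AT7519 in Scr and 33 in OSMI2 (28.2% and 31.4% of all genes). Library size alone gave 8, 8, 4 and 8 raised in Scr, siOGT1, siOGT2 and OSMI2, and 0 lowered by OSMI2 against Scr. Without a low-count filter, 7 and 5 were lowered by siOGT1 and siOGT2, 1 was raised by OSMI2, and the interactions gave 1 (siOGT1) and 2 (OSMI2). Keeping only genes whose mean log2 CPM exceeds 1, which tests 148 members, gave 73 and 67 lowered with AT7519 in Scr and OSMI2, 25 raised and 2 lowered by siOGT1, and 0 in the OSMI2 interaction. With only the groups compared, 8 and 6 were lowered by siOGT1 and siOGT2 (9.26% and 4.03% of all genes). That setting gave 7 raised and 3 lowered by OSMI2 (2.74% and 4.70%), and 0 called in the OSMI2 interaction. DESeq2 gave 25 raised and 6 lowered by siOGT2, 3 and 4 by OSMI2, and 1 and 0 in the siOGT1 and OSMI2 interactions. A ratio pseudocount of 1 CPM gave 58, 54 and 50 higher ratios in Scr, siOGT1 and siOGT2.

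The labels do not say whether the replicate numbers pair samples. Differences between replicates 1 and 2 correlated between siRNA arms under the same agent at 0.069 to 0.191 over all genes. They correlated at 0.048 to 0.227 over the members and 0.604 to 0.734 over the 10158 genes with a mean log2 CPM of 3 or more. Over those 10158 they correlated at 0.036, -0.014, -0.135 and 0.432 between agents in Scr, siOGT1, siOGT2 and OSMI2. With the replicate number as a block, 7, 6 and 2 were lowered by siOGT1, siOGT2 and OSMI2 (7.28%, 3.92% and 4.25% of all genes). With a replicate block within each agent, 52 were raised and 12 lowered by siOGT1 (8.49% and 9.92% of all genes) and 31 and 10 by siOGT2 (4.47% and 6.33%). That block gave 5 raised and 5 lowered by OSMI2 (2.44% and 7.60%), and 3 called in the siOGT1 interaction. The shares of all genes were thus larger than in the main fit as well. A crossed pairing of siOGT2, added after seeing the data, gave 12 raised and 123 lowered with AT7519.

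Leaving out 1 library gave 11 to 14 raised and 85 to 96 lowered in Scr, 9 to 14 and 64 to 84 in siOGT1, 7 to 12 and 77 to 102 in siOGT2, and 12 to 14 and 91 to 100 in OSMI2. It gave 8 to 20 raised and 0 to 2 lowered by siOGT1, 2 to 7 and 0 to 2 by siOGT2, 0 and 0 to 1 by OSMI2, and 0 to 2 in the OSMI2 interaction. Such fits have fewer degrees of freedom, and the lone library of a group is assumed to vary like the other groups. Outside the interactions they also called a smaller share of all genes. Of 67 named results, 43 kept direction and side of the threshold under every alternative run on it (several were run on some of the 67 alone), and 20 lost a call under at least 1. Reversed were SLC12A2-DT with AT7519 in Scr (0.018 with upper-quartile scaling and 0.091 without Scr AT7519 replicate 2, while -0.346 without replicate 1 kept the direction and was called) and GARS1-DT (-0.19 with library size alone, -0.024 with the block within agent). Low counts limit members under about 1 CPM, where a library holds few reads.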
